A study of Mus musculus with 5 samples.

Results

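The regions described here were distal sites of H3K27ac, acetylation of lysine 27 on histone H3, that carried no peak of the transcription factor JunB in mouse muscle stem cells (MuSCs). Both marks were mapped by CUT&RUN-seq, in which an antibody directs a nuclease to the chromatin it binds and the released DNA is sequenced. The members were defined by the measured peak calls themselves: an H3K27ac peak on chromosomes 1 to 19 or X that lay farther than 3 kb from every annotated transcription start site (TSS) and did not overlap, by even 1 bp, any peak of the 4 JunB lists. Of 39865 H3K27ac peaks, 39473 were on these chromosomes, 23436 of those were distal, and 19722 of the distal peaks were members. The other 3714 distal H3K27ac peaks overlapped JunB and served as the set for comparison. All libraries are labelled as mouse MuSCs, which the methods describe as isolated fresh from hindlimb muscle by cell sorting. For the H3K27ac data, on which every member rests, the methods also name an epigenome mapping project, so the origin of that library is not clear. JunB was mapped in 3 libraries labelled Young, taken as biological replicates, and in 1 library labelled Aged, while H3K27ac was mapped in 1 library of MuSCs whose age is not given in the sources used here. The ages of the young and aged mice in months are not given in the labels. No allele or agent is named for any sample, although a description of the whole series speaks of mice given DMSO or MVC where the sample labels say young or aged. Each library came from a population of cells, so the peaks describe a mixture and cannot tell a mark in few cells from a weak mark in all.

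H3K27ac is laid down by the acetyltransferases p300 and CBP at active promoters and enhancers, and away from promoters it is widely used to mark enhancers in use. MuSCs are the Pax7-expressing stem cells that lie between the muscle fibre and its basement membrane, stay quiescent under Notch signalling and repair muscle after injury. Their enhancers are known to be bound by paired-box factors and by myogenic helix-loop-helix factors such as MyoD, whose binding site is an E-box. JunB is a subunit of AP-1, the dimeric factor of the Jun and Fos families that binds the sequence TGAGTCA or, read on the other strand, TGACTCA.

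The sites below are shown because they belong to genes that define MuSCs or the myogenic programme, and because between them they hold the 2 motif states found most often, an E-box without AP-1 and no match to either. Each is the 300 bases centred on the H3K27ac summit of the strongest member (by −log10 q) of its nearest protein-coding gene, read 5′ to 3′ on the plus strand of GRCm38 (mm10), with any E-box CAGCTG in capitals.
Pax7 site, chr4:139743362-139743661: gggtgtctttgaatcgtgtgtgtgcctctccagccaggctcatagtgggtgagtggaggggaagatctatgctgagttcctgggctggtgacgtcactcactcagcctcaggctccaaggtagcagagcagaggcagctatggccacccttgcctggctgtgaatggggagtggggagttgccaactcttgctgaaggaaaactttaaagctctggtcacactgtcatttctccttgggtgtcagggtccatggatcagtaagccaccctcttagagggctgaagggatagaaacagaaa
Myf6 site, chr10:107562993-107563292: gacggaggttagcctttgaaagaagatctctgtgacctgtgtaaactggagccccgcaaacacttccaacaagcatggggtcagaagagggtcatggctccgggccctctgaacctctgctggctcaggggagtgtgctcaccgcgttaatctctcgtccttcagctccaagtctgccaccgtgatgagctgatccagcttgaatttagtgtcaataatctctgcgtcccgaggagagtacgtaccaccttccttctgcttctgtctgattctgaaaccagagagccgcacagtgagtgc
Myog site, chr1:134265808-134266107: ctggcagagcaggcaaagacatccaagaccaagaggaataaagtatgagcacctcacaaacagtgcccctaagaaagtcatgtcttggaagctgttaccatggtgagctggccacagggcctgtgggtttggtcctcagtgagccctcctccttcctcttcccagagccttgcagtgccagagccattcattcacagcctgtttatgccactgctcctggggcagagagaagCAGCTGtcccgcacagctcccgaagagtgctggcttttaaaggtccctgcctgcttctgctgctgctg
Runx1 site, chr16:92637024-92637323: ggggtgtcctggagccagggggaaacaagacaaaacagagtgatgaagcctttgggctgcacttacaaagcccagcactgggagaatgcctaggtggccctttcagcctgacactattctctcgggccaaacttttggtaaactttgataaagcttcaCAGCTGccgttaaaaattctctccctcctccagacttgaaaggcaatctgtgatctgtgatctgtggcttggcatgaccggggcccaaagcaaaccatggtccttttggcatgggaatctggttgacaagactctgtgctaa
Cxcr4 site, chr1:128532875-128533174: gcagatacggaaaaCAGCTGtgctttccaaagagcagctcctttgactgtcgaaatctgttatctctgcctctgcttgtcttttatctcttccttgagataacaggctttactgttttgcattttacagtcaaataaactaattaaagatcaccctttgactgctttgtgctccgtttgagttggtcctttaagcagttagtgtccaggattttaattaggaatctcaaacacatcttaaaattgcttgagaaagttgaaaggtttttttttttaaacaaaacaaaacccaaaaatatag
Chodl site, chr16:78831293-78831592: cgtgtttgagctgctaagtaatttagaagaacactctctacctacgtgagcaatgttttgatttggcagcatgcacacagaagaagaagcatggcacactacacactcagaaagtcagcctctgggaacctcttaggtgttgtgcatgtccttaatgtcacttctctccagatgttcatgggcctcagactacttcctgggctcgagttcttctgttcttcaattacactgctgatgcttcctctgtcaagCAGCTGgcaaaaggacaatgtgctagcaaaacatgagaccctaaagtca

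The sites of Pax7 and Runx1 were in introns of those genes. The site of Myf6 was upstream of the gene and in an exon of its neighbour Ptprq, and those of Myog, Cxcr4 and Chodl were intergenic. The windows of Myog, Runx1, Cxcr4 and Chodl each held 1 E-box, and those of Pax7 and Myf6 held no match to any of the 11 motifs searched. None of the 6 windows held TGAGTCA or TGACTCA, the only letters sought for AP-1. GC content ran from 35.7% at Cxcr4 to 55.3% at Myog.

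Of the 11 motifs, the E-box was the most frequent in the member windows and had the highest ratio to their flanks. AP-1 was about as frequent in the member windows as in the surrounding sequence. CAGCTG was present in 5785 of 19722 windows of 300 bp (29.3%, exact 95% binomial interval 28.7 to 29.97) against 12.6% of equally long windows 2 kb to either side, a ratio of 2.33. The same E-box was in 26.4% of the distal windows with JunB (interval 24.97 to 27.8), in 21.2% of the promoter windows without JunB and in 25.5% of all H3K27ac windows. AP-1, searched as TGAGTCA and TGACTCA, was in 1077 member windows (5.46%, interval 5.15 to 5.79) against 5.28% of their flanks, a ratio of 1.03. In the distal windows with JunB it was in 16.0% (interval 14.8 to 17.2) against 5.79% of flanks, and in all H3K27ac windows in 5.98%. The members and the distal peaks with JunB thus differed by 10.5 percentage points in AP-1 content, far outside both counting intervals, which cover counting error of peaks only. The difference was 2.98 points in windows of 100 bp and 29.7 points over whole peaks, so its size depends on the window, and the members were the lower in each. The median GC content was 46.7% in the member windows and 43.7% in their flanks, and 48.3% and 44.7% around the peaks with JunB.

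Read along the sequence, the E-box had its highest density at the H3K27ac summit of the members, 1.26 copies per kb in the 100 bp to the left of the summit and 1.27 in the 100 bp to the right, against 0.47 copies per kb in the outermost 100 bp on either side. In the peaks with JunB the corresponding values at the summit were 1.09 and 1.07 copies per kb. In the members AP-1 varied far less, with 0.18 copies per kb in both bins next to the summit and 0.20 and 0.17 at the edges. Its highest values, 0.22 and 0.21 copies per kb, were at 150 bp to the left and right of the summit. Around the peaks with JunB it reached 0.82 and 0.80 copies per kb at 150 bp to the left and right of the summit and fell to 0.47 and 0.58 in the 2 bins next to it.

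**Figure D1:**
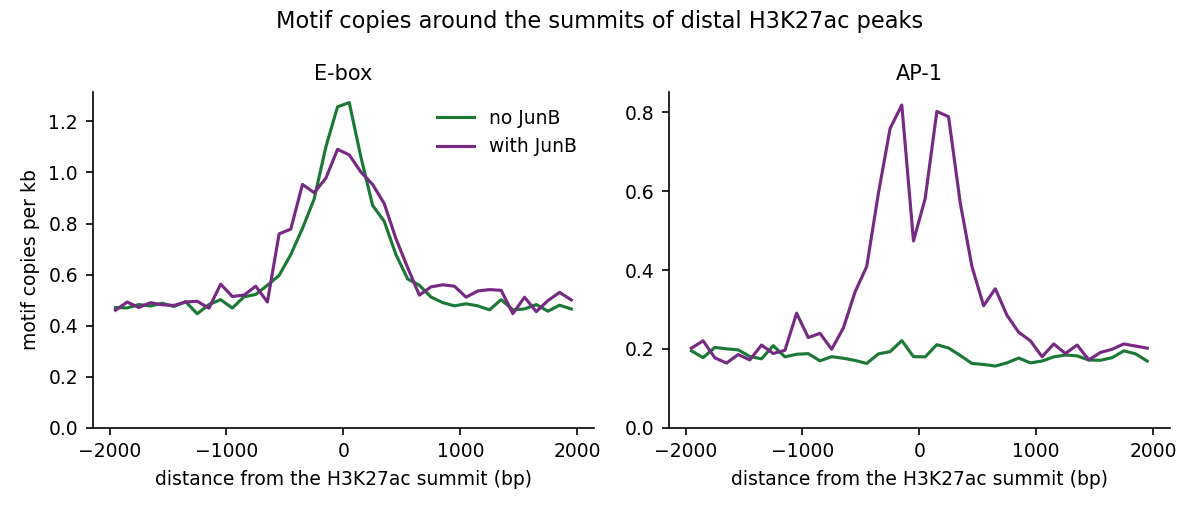
Copies of the E-box (left) and AP-1 (right) per kb in bins of 100 bp, against the distance from the H3K27ac summit in bp, for 19722 distal peaks without JunB (green) and 3714 with JunB (purple). The green E-box line peaks at 1.27 copies per kb while the green AP-1 line stays at 0.22 or below, and the purple AP-1 line rises to 0.82 on either side of the summit.

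The 2 motifs differed in opposite directions between weak and strong members. From the weakest to the strongest of 10 equal bins by −log10 q, the share with an E-box went from 27.2% (interval 25.2 to 29.2) to 35.3% (33.2 to 37.5), and the share with AP-1 from 6.28% (5.25 to 7.45) to 4.01% (3.18 to 4.97). The median GC content of the same bins went from 45% to 48%. Among all distal peaks, AP-1 content followed the number of JunB libraries that had a peak there. It was 5.46% with none, 12.8% with 1, 15.7% with 2, 16.4% with 3 and 21.7% with all 4, whose interval was 19.1 to 24.6. The E-box was in 29.3%, 28.8%, 24.1%, 26.3% and 23.8% of the same windows. Of the 658 members within 1 kb of a JunB peak 4.26% (interval 2.85 to 6.09) held AP-1, and of the 3496 members over 100 kb from any 6.12% (5.35 to 6.97), with intervals that overlapped. Over whole peaks, 2629 members (13.3%) held at least 1 AP-1 sequence without a JunB peak, at 184 copies per Mb against 586 copies per Mb in the peaks with JunB.

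The GC-rich motifs of promoters were less frequent in the members than in promoter windows, though more frequent than in the flanks of the members. The SP/KLF letters GGGCGG, a GC box common in promoters, were in 4.37% of member windows, 7.32% of distal windows with JunB, 19.5% of promoter windows without JunB and 12.4% of all H3K27ac windows, and the intervals of the first 2 did not overlap (4.08 to 4.66 and 6.51 to 8.21). The ETS letters CCGGAAG were in 1.77% of member windows against 5.86% of promoter windows without JunB and 3.76% of all. In the flanks of the members SP/KLF was in 3.19%, a ratio of 1.37, and ETS in 0.913%, a ratio of 1.94. TEAD (GGAATG), whose factors recruit the Hippo co-activators, was in 18.3% of members against 16.2% of flanks, and RUNX (TGTGGT) in 20.9% against 21.4%. MEF2, the muscle differentiation factor searched by its A/T-rich consensus, was in 3.82% against 5.98% of flanks, so it was less frequent at the summits than beside them. NF-kB was in 2.93% of members (interval 2.70 to 3.18), 4.33% of distal peaks with JunB (3.70 to 5.04), 4.44% of promoter windows without JunB and 3.76% of all windows. Its share in the flanks of the members was 2.40%, a ratio of 1.22. The long consensus sites for CTCF, NFI and paired homeodomains each matched under 0.3% of member windows. Each motif was sought on both strands. A match is a description of the letters and shows no binding.

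Members were weaker and narrower than the distal peaks with JunB. Their median width was 690 bp (95% interval of the median 682 to 698, n = 19722) against 875 bp (852 to 897, n = 3714), a difference of 185 bp. Their median fold enrichment over the local background was 3.51 against 3.71 (interval of the latter 3.67 to 3.75), and their median −log10 q was 7.38 (7.29 to 7.45) against 9.71 (9.49 to 9.99). Promoter peaks without JunB had a median width of 696 bp and those with JunB 936 bp. With 1 H3K27ac library there was no replicate of these values, and no test was made.

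**Figure D2:**
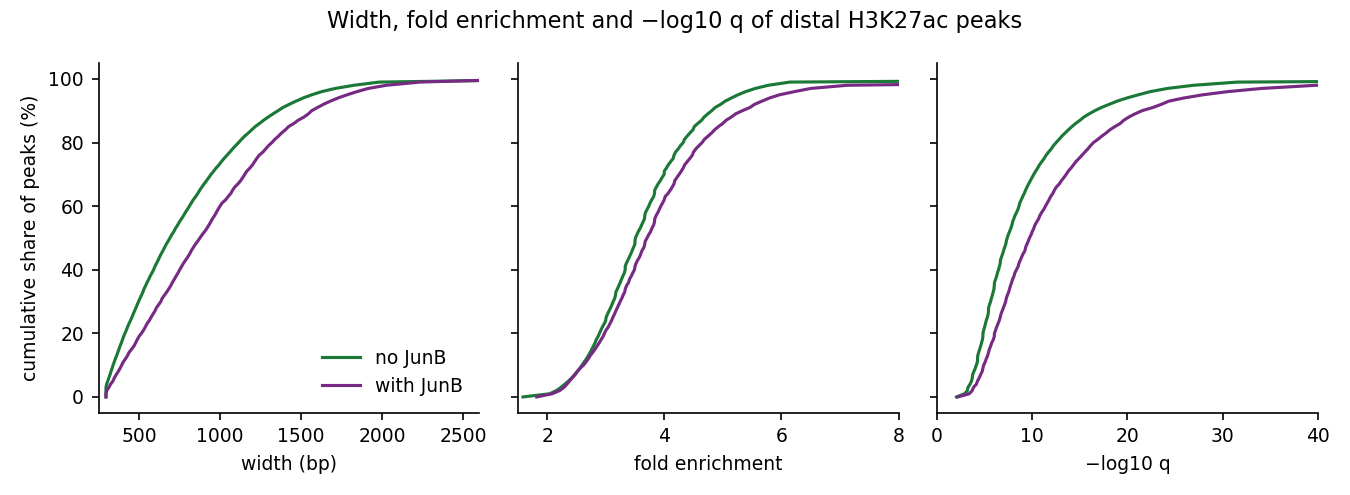
Cumulative share of distal H3K27ac peaks (%) against width in bp, fold enrichment and −log10 q, for the peaks without JunB (green) and with JunB (purple). The axes leave out the highest values, and the green curves lie to the left over most of all 3 panels, with medians of 690 against 875 bp, 3.51 against 3.71 and 7.38 against 9.71.

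Of the distal peaks, 84.2% were members (interval 83.7 to 84.6), compared with 73.6% (72.9 to 74.3) of the promoter peaks that carried no JunB. The share depended on the strength of the H3K27ac peak. It was 92.9% (91.8 to 93.9) in the weakest of 10 equal bins by −log10 q and 72.3% (70.5 to 74.1) in the strongest, and it declined at every step between them. By width it went from 90.9% to 74.1%. A wider peak offers more bases for an overlap, and the part of width in these shares was not tested. Within bins of equal −log10 q the difference in width was smaller. The median widths were 416 bp for members and 455 bp for peaks with JunB in the weakest bin, 557 and 651 bp in the 4th, where they lay farthest apart, and 1340 and 1282 bp in the strongest, where members were the wider. In contrast, AP-1 content remained lower in the members in every bin of −log10 q, from 5.97% against 28.7% in the weakest to 4.13% against 8.95% in the strongest.

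**Figure D3:**
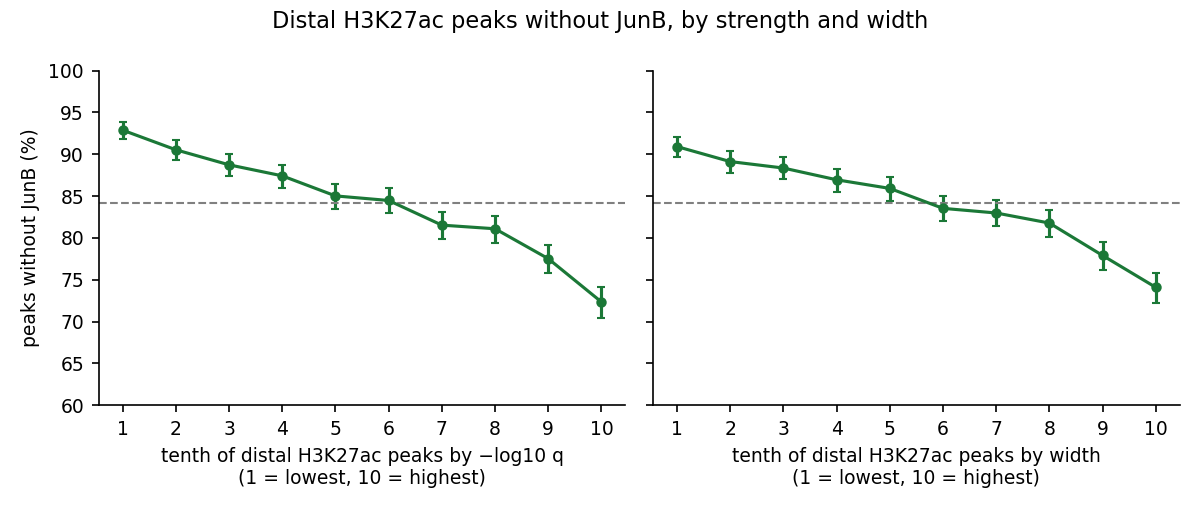
Share of distal H3K27ac peaks without JunB (%) in 10 equal bins ranked by −log10 q (left) and by width (right), with exact 95% binomial intervals and a dashed line at 84.2%, the share over all distal peaks. The axis starts at 60%, and the share falls from 92.9% to 72.3% with −log10 q and from 90.9% to 74.1% with width.

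How many peaks lacked JunB also depended on the JunB lists, which differed in size and threshold. Young replicates 1, 2 and 3 overlapped 2474, 1589 and 1279 distal H3K27ac peaks, which is 7.60% ± 2.65 (SD, n = 3) of all distal peaks. The aged library overlapped 2764, or 11.8% (interval 11.4 to 12.2). The lists held 9534, 4884, 3863 and 14123 peaks, in that order. The lowest −log10 p was 3.01 in the first and the last of them and 5.33 and 5.22 in the other 2, so age and list size cannot be told apart here. A supplementary peak sheet of the study, held in part, has the peaks of the aged list under the heading young. The paper's text gives 14123 peaks for aged MuSCs, which is the size of the list labelled aged here. The heading of that sheet thus conflicts with both the sample label and the paper's text. Of the 3714 peaks with JunB, 1619 (43.6%) had it in 1 library and 892 (24.0%) in all 4.

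At the limits of the rule, the member nearest to a TSS was 3001 bp away, near Mapre3, and the nearest peak left out for distance lay 3000 bp away, near Vps37b. Both were ordinary peaks, with fold enrichments of 2.41 and 4.50. The members closest to JunB, near Actbl2, Creb3l1 and Gm31371, were 1 bp from a JunB peak, and a peak near Creb5 was left out for an overlap of 1 bp. Most members were far from JunB: the median gap was 60.7 kb to young replicate 1, 116 kb to young replicate 2, 156 kb to young replicate 3 and 41.7 kb to the aged library. Taking all lists together it was 30.5 kb, and 658 members (3.34%) were within 1 kb.

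Introns held most members. By the highest class that a peak touched, 10524 (53.4%, interval 52.7 to 54.1) were intronic, 7796 (39.5%, 38.8 to 40.2) intergenic, 798 exonic and 510 in a 3′ UTR, with 49 just downstream of a gene and 45 in a 5′ UTR. The distal peaks with JunB were less often intronic, at 48.2% (46.6 to 49.8), and more often intergenic, at 45.5% (43.9 to 47.1), and neither pair of counting intervals overlapped. Of the 11145 members with an intronic summit, 82.0% were in the gene whose TSS was nearest among protein-coding genes. Members were also somewhat farther from TSSs, with a median of 17.2 kb (16.9 to 17.7) against 15.2 kb (14.5 to 15.9). Between 3 and 10 kb lay 30.8% of members, between 10 and 50 kb 52.0%, between 50 and 100 kb 11.9% and between 100 and 500 kb 5.26%.

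**Figure D4:**
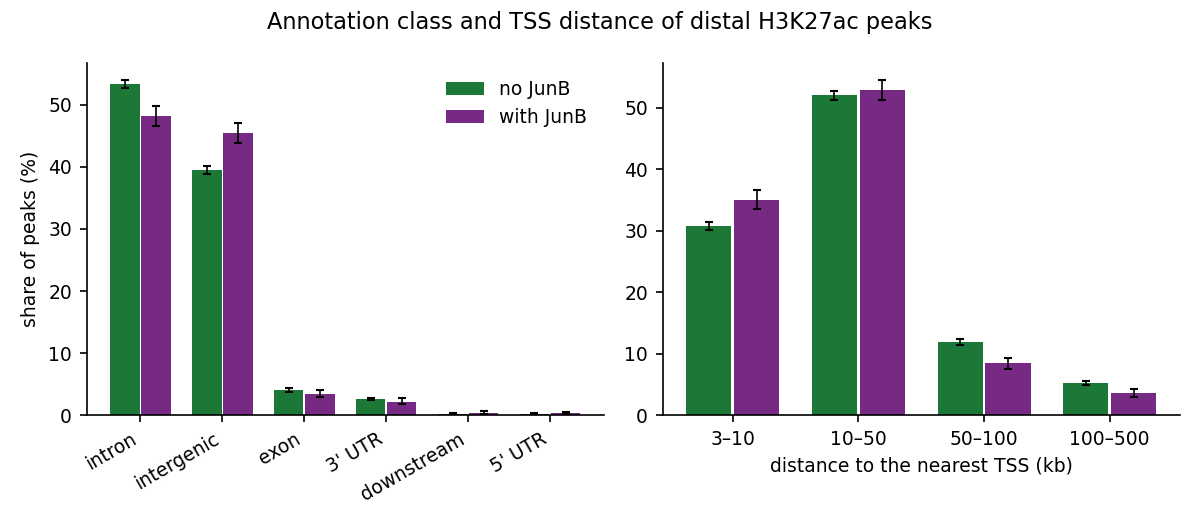
Share of distal H3K27ac peaks (%) by annotation class (left) and by distance to the nearest TSS in kb (right), for peaks without JunB (green) and with JunB (purple), with exact 95% binomial intervals. Intronic peaks are 53.4% of the green set and 48.2% of the purple set, and peaks at 3 to 10 kb are 30.8% and 35.1%.

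The median gap from a member to the nearest other H3K27ac peak was 9.76 kb, and 50.8% had one within 10 kb. The distal peaks with JunB lay somewhat closer to their neighbours, with a median of 8558 bp and 55.7% within 10 kb. The peak nearest to a member was another member for 65.6%, a promoter peak for 23.6% and a distal peak with JunB for 10.9%. The peak nearest to a distal peak with JunB was a member for 57.4% and another of its own kind for 16.0%, where members made up 49.96% of all H3K27ac peaks on these chromosomes. Across chromosomes the density of members ran from 6.54 per Mb on chromosome 14 to 8.83 on chromosome 13 among the autosomes, and was 2.87 per Mb on the X chromosome. The X chromosome also had the highest share of distal peaks without JunB, 92.5% (interval 89.9 to 94.6), and the fewest JunB peaks per Mb, 4.26 over the 4 lists against 8.81 or more on each autosome.

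The strongest members were in repeated sequence. The 5 with the highest −log10 q, from 77.8 to 88.9, all lay on chromosome 8 between the positions 19763211 and 20530128, in intergenic stretches nearest to the protein-coding genes Gm31371, 4930467E23Rik and Gm21119. The 31 bases at their summits occurred 10 to 23 times on chromosomes 1 to 19 and X. The 5 with the highest fold enrichment were nearest to Zfp808, at 14.2-fold, Tango6, Btbd35f6, Vmn1r157 and Gm3139, and their summit stretches occurred 22 to 75 times. Of the 20 strongest members 12 (60%, interval 36.1 to 80.9) had a summit stretch with more than 1 copy, compared with 8.4% of the 1000 strongest and 3.87% (763) of all members. The share of repeated summits was 6.68% (5.90 to 7.53) in the distal peaks with JunB. Of the 2 densest stretches of 1 Mb, chr6:114000001-115000000 held 47 members and chr8:20000001-21000000 held 46, of which 72.3% and 95.7% had repeated summits. How multiply mapped reads were placed is not given in the sources used here, and their part in these peaks was not tested.

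The widest members, by contrast, had summits of 1 copy. By nearest protein-coding TSS they belonged to Prr5, a subunit of mTOR complex 2 (3310 bp, 3.99-fold), Hdac4, a class II histone deacetylase (3137 bp), Vps8 (2744 bp), Sulf1, an extracellular heparan sulfatase (2686 bp, but 356 kb from its TSS), and Nln, a peptidase (2624 bp). The Hdac4 and Nln sites had intronic summits, that of Vps8 was exonic, and those of Prr5 and Sulf1 were intergenic. Their −log10 q ran from 17.5 to 31.7, well below that of the repeated sites on chromosome 8.

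Assigned to the nearest TSS of a protein-coding gene, the members fell to 6317 of 21755 genes (29%). The median was 2 members per gene with any, and 1151 genes had at least 5, 367 at least 10 and 72 at least 20. The 5% of genes with the most members (315) held 25.7% of them. Nearest-TSS assignment favours genes that stand far from others: the stretch of genome nearest to a gene had a median of 122 kb for genes with a member and 31.1 kb for genes without. For this reason the members per Mb of that stretch are given for each gene list. Over all protein-coding genes there were 7.49 members per Mb.

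The gene with the most members was Ptprd, a receptor tyrosine phosphatase, with 39 over a stretch of 3842 kb (10.2 per Mb). It was followed by the transcriptional repressor Zbtb20 with 38 (38.8 per Mb), the activin receptor Acvr2a with 36 (18.6 per Mb), the nuclear receptor Rora with 36 (35.0 per Mb), the splicing regulator Celf2 with 35 (16.0 per Mb) and the RNA-binding protein Rbms3 with 34 (25.4 per Mb). The BMP-binding protein Bmper, the transcription factors Nfib and Tcf4, and the teneurin Tenm4 had 32 each. Per Mb, Bmper (40.8) and Nfib (39.6) had the highest densities of these 10 genes and Ptprd the lowest. Each of the 10 also had between 2 and 6 distal H3K27ac peaks with JunB, and Zbtb20 and Tcf4 had JunB within 3 kb of a TSS in all 4 libraries.

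Many genes with members had JunB elsewhere. Of the 6317 genes, 1842 (29.2%) also had a distal H3K27ac peak with JunB, compared with 11.01% of all protein-coding genes, and 2162 (34.2%) had a JunB peak within 3 kb of a TSS in at least 1 library, compared with 26% of all. A promoter H3K27ac peak was present at 64.6% of the genes with a member and at 50.2% of all. In 3068 genes (48.6%) neither a promoter JunB peak nor a distal H3K27ac peak with JunB was assigned, and 279 of these had at least 5 members.

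The genes that define MuSCs were among those with members. Of 26 genes of MuSC identity, 23 (88.5%, beside 29% of all protein-coding genes) were nearest to at least 1, with 98 members in all or 23.0 per Mb. The members were 82.4% of the 119 distal peaks of this list (interval 74.3 to 88.7), beside 84.2% of all distal peaks. The list was thus dense in distal H3K27ac peaks, and the share of them without JunB was close to that of all. Ncam1, an adhesion molecule of MuSCs, had 17, the chemokine receptor Cxcr4 10, Megf10, which acts in satellite cell proliferation, 8, and the membrane lectin Chodl 7. Of the 3 genes with none, Cdh15, which encodes M-cadherin, and the syndecan Sdc4 had an H3K27ac peak at the promoter and Myf5 did not. Promoter H3K27ac was found at 18 of the 26 genes, and Pax7, Calcr, Ncam1 and Cxcr4 were among those where no peak was called within 3 kb of a TSS. The distal sites were therefore the only H3K27ac peaks counted here for those 4 genes. Peaks within 3 kb of the TSS of another gene, coding or not, were not assigned to them.

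Pax7 itself, the paired-box factor of MuSCs, had 2 members and 2 peaks with JunB, all 4 within the gene and downstream of its start. The members were chr4:139743318-139744510 (1193 bp, 2.90-fold, −log10 q 10.7, 88.5 kb from the TSS) and chr4:139782898-139783300 (403 bp, 2.44-fold, −log10 q 4.39). Between them lay the peaks with JunB, of 644 and 481 bp, and the members were 7175 and 7492 bp from the nearest JunB peak. Calcr, the calcitonin receptor that keeps MuSCs quiescent, had 2 intragenic members of 449 and 1424 bp, at 2.66- and 2.07-fold and 32786 and 430 bp from the nearest JunB peak, and a further distal peak with JunB at 4.89-fold. Myog, the factor of terminal differentiation, had 2 upstream members of 4.33- and 3.83-fold at 23.5 and 13.4 kb and no peak with JunB. Myod1 had no member, and both of its distal H3K27ac peaks carried JunB. Junb had no distal H3K27ac peak, and JunB was at its own promoter in all 4 libraries.

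Among 17 myogenic transcription factors and their partners, 12 had a member, with 88 in all (17.9 per Mb). These were 84.6% of the 104 distal peaks of the list (interval 76.2 to 90.9), near the 84.2% of all distal peaks. Tcf4, an E protein that pairs with MyoD, had 32, Runx1 13, and Tead1 and Myf6 8 each. At Myf6, which encodes Mrf4, the 8 members were all upstream, from 3.08 to 111 kb, and the strongest had a −log10 q of 27.1. Their widths ranged from 388 to 1991 bp and their fold enrichment from 1.94 to 4.35, and no distal peak there carried JunB. One of them was 162 bp from a JunB peak, and the others were 3421 bp or more away. Myf5, the neighbour of Myf6, had JunB at its promoter in 3 libraries and no member, since the TSS of Myf6 was the nearer for all 8, and the 2 genes are known to share upstream enhancers.

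The niche and signalling genes showed a similar picture. Of 26 genes of the basement membrane and adhesion, 22 (84.6%) had a member, with 82 in all (18.5 per Mb). Lama2, the laminin chain of the muscle basement membrane, had 22 and no distal peak with JunB, Col15a1 had 7, Itgb1 6 and Col6a3 5. Of 24 genes of the Notch pathway, 13 (54.2%) had a member, with 81 in all (23.5 per Mb). The ligand gene Jag1 had 25, the co-activator gene Maml2 11, Rbpj, the DNA-binding factor of the pathway, 10, and the target gene Hey1 6. The strongest of the Rbpj sites was upstream of the gene at chr5:53450509-53451917, with 6.60-fold enrichment and a −log10 q of 47.9. Jag1 also had 4 distal peaks with JunB and Rbpj 5, while Hey1 had none. Without JunB were 79.6% of the distal peaks of the basement membrane list (interval 70.5 to 86.9) and 83.5% of those of the Notch list (74.6 to 90.3). Both intervals held the 84.2% of all distal peaks.

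Sarcomere genes, which muscle fibres express, had 49 members (11.4 per Mb) and no distal H3K27ac peak with JunB. JunB was within 3 kb of a TSS at 8 of the 30 genes in at least 1 library, and at Dmd and Mylpf in all 4. All 49 of 49 distal peaks of this list were without JunB (100%, interval 92.7 to 100), compared with 84.2% of all distal peaks. Dmd, the gene of dystrophin, held 29 of the 49 and lies on the X chromosome, where 92.5% of distal peaks lacked JunB. Without Dmd 20 of 20 peaks lacked JunB, with an interval (83.2 to 100) that held the 84.2% of all distal peaks. Actn2 and Mybpc1 had 3 each and Mb, which encodes myoglobin, 2. Only 13 of the 30 genes had a member (43.3%, beside 29% of all genes), and promoter H3K27ac was found at 19. The list was chosen with earlier results of these data known, and no test was made of its difference from the rest.

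The opposite end of the scale was held by regulators of stress and growth signalling. Of the distal peaks of 16 annotated feedback regulators of MAPK signalling, the Dusp, Spry and Spred genes, 41 of 64 lacked JunB (64.1%, interval 51.1 to 75.7), and of those of 16 senescence and cell-cycle inhibitor genes 17 of 27 (63.0%, 42.4 to 80.6). Both intervals lay below the 84.2% of all distal peaks. So did those of the fibro-adipogenic markers (32 of 46, 69.6%, 54.2 to 82.3) and of the secreted factors described next. For the MAPK and senescence lists the members per Mb were 13.2 and 10.8, and 11 and 8 of the genes had at least 1. Spred2 had 9 members, Spry2 7, Dusp10 6 and Dusp1 4, and at Spry2 and Dusp10 they stood beside 5 peaks with JunB each. Gadd45a, induced by stress, had 4 members and 4 peaks with JunB. Cdkn2b, which encodes p15, had 3 members and no JunB within 3 kb of a TSS or at distal H3K27ac. Rb1 had 3 and Btg2 2. Of 16 genes of the AP-1 family, 4 (25%, beside 29% of all genes) had a member, with 31 in all or 16.3 per Mb. Maf had 21 of them, Jun 5, Fos 4 and Atf3 1. JunB was at the promoter of 12 of the 16 in at least 1 library.

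Genes of the senescence-associated secretory phenotype (SASP), the secreted factors of senescent cells, had 145 members. Of 114 such genes, 53 (46.5%, beside 29% of all genes) were nearest to a member, at 11.4 per Mb. Of their 188 distal peaks, 145 lacked JunB (77.1%, interval 70.5 to 82.9), an interval below the 84.2% of all distal peaks. Igfbp3 had 13 members and no distal peak with JunB, Cxcr4 10, the receptor gene Egfr 8 and Igf1 7. Bmp6, Ifng and Ntf3 had 6 each, Egf and Fgf9 5 each, and Ccl27a and Il12b 4 each. Angpt2, Bdnf, Cxcl1, Cxcl12, Igfbp4 and Tnfsf10 had 3 each. For 25 of the 53 genes no JunB was assigned, at the promoter or at distal H3K27ac. The same held for 3068 of the 6317 genes with a member (48.6%). By this count of genes, unlike the share of peaks above, the list was close to the share over all such genes.

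Markers of other cell types were also nearest to members. The share of genes with one was 62.5% for fibro-adipogenic, 66.7% for endothelial and 58.3% for smooth muscle and pericyte markers. It was 12.5% for haematopoietic, 37.5% for neuron and glia and 28.6% for hepatocyte markers, beside 29% of all protein-coding genes. Of 16 markers of fibro-adipogenic progenitors, the mesenchymal cells of muscle, 10 had one (13.4 per Mb), led by Dcn with 11, Col3a1 with 7, Col1a2 with 4 and Pdgfra with 3. Of 15 endothelial markers 10 had one (14.3 per Mb), led by Cdh5 with 16, Tek with 5, and Erg and Kdr with 3 each. The Cdh5 sites were spread over a stretch of 697 kb, and the strongest was intergenic, 350176 bp from the TSS. Of 12 smooth muscle and pericyte markers 7 had one (20.01 per Mb), with Mylk at 7 and Abcc9, Acta2 and Myh11 at 2 each. Of 16 haematopoietic markers 2 had one (6.47 per Mb), Laptm5 with 1 and Ptprc, the gene of the CD45 antigen on which the sort removed blood cells, with 7. The Ptprc sites were spread over 687 kb, and the strongest was intergenic, 470029 bp from the TSS. Promoter H3K27ac was found at 5 of 16, 5 of 15, 6 of 12 and 3 of 16 genes of these lists. In comparison, 6 of 16 neuron and glia markers (3.18 per Mb; Mbp, Rbfox3, Snap25 and Syt1 with 2 each) and 4 of 14 hepatocyte markers (3.67 per Mb; Apoh with 6, Apob with 2, Cps1 and Cyp7a1 with 1 each) were nearest to a member. The sort described in the methods removed cells with CD45, CD31 (endothelial) or SCA1 (fibro-adipogenic) and kept those with VCAM. Whether the H3K27ac library came from that sort is not clear. The part of other cells in these sites was not tested. Ribosomal protein genes, which lie in gene-dense stretches, had a member at 14 of 85 (4.16 per Mb; Rps12 and Rps24 with 4 each, Rpl38 with 3, Rpl10l with 1), with promoter H3K27ac at 78. Olfactory receptor genes, silent in muscle, had one at 19 of 1093 (0.758 per Mb), the highest being Olfr1505 with 5, Olfr1423 with 3, Olfr90 with 2 and Olfr1324 with 1.

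**Figure D5:**
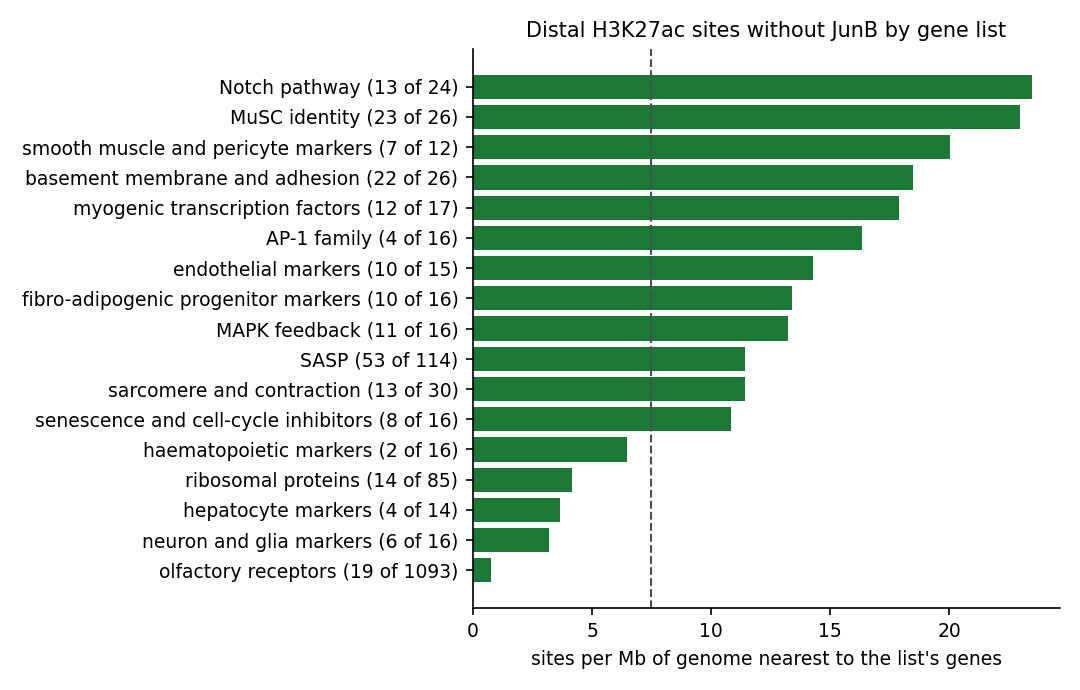
Distal H3K27ac sites without JunB per Mb of the genome nearest to the genes of each list, with the number of genes that have at least 1 site in brackets and a dashed line at 7.49 per Mb, the value over all protein-coding genes. Notch pathway (23.5) and MuSC identity (23.0) genes lie highest and olfactory receptors (0.758) lowest, and the endothelial, fibro-adipogenic and smooth muscle lists are also above the line.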

How the data were processed

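Peak lists of 4 JunB libraries (3 young, 1 aged) and 1 H3K27ac library of mouse MuSCs were analysed. Per the labels, Bowtie2 (on mm10) and MACS2 were the authors' aligner and peak caller, with 1 list per library. Versions and a control library are not given in the sources used here. Each deposited peak has a fold enrichment, the ratio of its summit to the background around it. The authors' −log10 p and −log10 q of each peak were deposited too. The score column was not used. Depth is unknown, since no read counts come with the peaks. A p cutoff is given in the methods, but the lowest −log10 p differed between the deposited lists.

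Distances, classes and nearest genes were computed from GENCODE M21 on GRCm38 (21755 protein-coding genes, taking the first class touched in the order 5′ UTR, then 3′ UTR, then exon, then intron, then up to 300 bp downstream, otherwise intergenic). Coordinates are 1-based. Motifs were counted in windows of 300 bp at the summit in the RefSeq copy of GRCm38.p6, with windows 2 kb to either side as flanks. Copies of the 31 bases at each summit were counted by exact match on both strands. Shares carry exact (Clopper-Pearson) 95% intervals and medians order-statistic intervals, which cover counting error only. The H3K27ac list had no replicate, so no test was made. Genes were named by rule: Pax7, Myf5, Myod1, Myog, Calcr and Junb, the 10 with the most members, up to 4 per list, SASP genes with 3 or more, and the 5 strongest, highest-fold and widest members. Cdh15, Sdc4, Mylpf and the genes at the limits of the rule were named after their values were seen. The members and lists were chosen with earlier results of these data known. SASP genes were the mouse genes of a supplementary sheet of the study, and kinases with the Rps prefix were left out of the ribosomal list. In a supplementary peak sheet held in part, the column headed young matched the deposited aged list, so no difference between ages was drawn from the JunB libraries. Python 3.11.15, numpy 2.4.6, scipy 1.17.1 and matplotlib 3.10.9 were used. Overlap, distance, motif and copy counting were tested on simulated data, the first 2 against bedtools 2.31.1.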

Additional observations from a re-analysis of the deposited data

Results flagged for a closer look

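The H3K27ac list held 392 peaks outside chromosomes 1 to 19 and X, which no comparison above used. Of these, 19 were on chromosome Y, 2 on the mitochondrial genome and 371 on unplaced contigs and patches. They were singled out as signal in data that the comparisons left out. The TSSs used here were those of chromosomes 1 to 19 and X, so no distance from a TSS was computed for them.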

How the results depend on the processing

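Members were narrower than distal peaks with JunB in all 18 alternatives in which width was recomputed, and held AP-1 less often in all 20 in which AP-1 was. Leaving out 1 JunB library gave a share of distal peaks without JunB of 84.36% (without young replicate 3) to 88.37% (without the aged library) and an AP-1 difference of -12.15 to -10.31 points. With a JunB peak required in 2 of the 4 libraries the share was 91.06% and the AP-1 difference -12.40. With JunB −log10 q of at least 2 the share was 85.28%. With the 2000 strongest JunB peaks of each library it was 95.11%, the width difference -149.5 bp and the AP-1 difference -13.88. Counting JunB within 1000 bp gave 81.34%, -131 bp and -8.72, and JunB within 250 bp of the summit 85.71%, -119.5 bp and -11.82. A TSS distance over 10000 bp gave 84.99%, and merging H3K27ac peaks within 500 bp 83.65%. An H3K27ac −log10 q of at least 5 gave 82.25% and -133 bp. With H3K27ac peaks above the median −log10 q of 8.40 only, there were 8220 members near 4127 genes, 78.75%, -58.5 bp and -8.72. The AP-1 difference was -2.98 in windows of 100 bp and -29.72 over whole peaks. Leaving out repeated summits, an alternative chosen after the data were seen, left 18959 members and 84.54%. Counts of genes per list stayed within 1.5 times the reported count in 303 of 323 recounts. By the nearest TSS of any gene, coding or not, the protein-coding genes with a member fell from 6317 to 4508 in all. The endothelial and fibro-adipogenic markers with a member fell to 5 each, the Notch genes to 8 and the sarcomere genes to 7. Other lists fell as well, such as the AP-1 family to 2, senescence genes to 4, ribosomal proteins to 5 and olfactory receptors to 10. The smooth muscle and pericyte markers stayed at 7. No paired analysis was possible because the H3K27ac values come from 1 library and no test was made.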
